A study of Mus musculus with 38 samples.

Results

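The genes described here build, trim and regulate the extracellular matrix of the liver. They were chosen by symbol: the collagen chains, the matrix metalloproteinases (Mmp), the tissue inhibitors of metalloproteinases (Timp), the lysyl oxidases (Lox and Loxl), and Dcn, Lum, Bgn, Fn1, Sparc, Tgfb1, Acta2, Des and Pdgfrb. On the array, 133 probes of 79 genes carried 1 of these symbols alone, of 36607 probes, whose single symbols named 17501 genes. Of the 79 genes, 35 had over 1 probe. Spp1 was also on the list and was not analysed here.

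Fibrillar collagens are secreted as procollagen, trimmed, assembled into fibrils and crosslinked by lysyl oxidases. Small leucine-rich proteoglycans such as decorin coat the fibrils, metalloproteinases cleave matrix proteins, and the Timp proteins inhibit them. In liver, stellate cells and portal fibroblasts are the main source of this matrix. TGF-beta and PDGF drive stellate cells into contractile myofibroblasts, which express smooth muscle actin and lay down scar.

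The livers came from 20 male mice in 4 groups of 5. Knockout mice carried 1 copy of the albumin-Cre transgene and floxed Met on both alleles (Alb-Cre +/-; Met Fl/Fl, 129SV/C57BL6), and control mice carried Alb-Cre +/- alone (B6129), so the background named in the labels differs with the genotype. The albumin promoter drives Cre in hepatocytes, so stellate cells and other matrix-producing cells are not the cells it targets. Every mouse, controls included, had received a single dose of the hepatocarcinogen N-nitrosodiethylamine (DEN), 10 µg per g of body weight, at 14 days of age. Livers were taken 3 or 5 months after DEN per the design text, while the labels give ages of 12 and 20 weeks, which is earlier. Each liver's RNA was set against 1 common reference on 2-colour arrays, a pool of RNA from 5 untreated wild-type B6129 male livers aged 12 weeks. That pool is a single control sample whose own spread is left out, and the labels give it a younger age than the 5-month groups.

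Values are log2 ratios of liver over reference, 1 per mouse, so 0 is the level of the untreated pool and positive values lie above it. Such ratios compare 1 probe between livers and do not rank genes by abundance. All but 2 mice had an array in each dye orientation; 5-month knockout 2 had only the array with liver in Cy3 and 5-month knockout 3 only the array with liver in Cy5. The direction of the deposited ratios is not given in the sources used here and was taken as Cy5 over Cy3, the usual convention. Under it the oncofetal genes H19 and Afp were more than 2-fold above the reference in 4 and 2 mice, and more than 2-fold below it in none. If the ratios ran the other way, every sign below would turn. The array of 5-month control 4 with liver in Cy5, correlated at r of -0.61 to -0.48 over probes with the 10 liver-in-Cy5 arrays of 3-month mice, but at r 0.70 with the same mouse's other array once that was turned. Its sign was turned as an alternative, and the named calls that this ended are given below. The labels give each array an mAdbID number, and these fall into 4 sets of consecutive or nearly consecutive numbers, called number sets here. What the arrays of a set share is not stated in the labels. One set holds all 5-month controls with 5-month knockouts 1 and 2, another 5-month knockouts 3 to 5, and 2 sets hold both genotypes at 3 months. The Met probe gave -0.59 to 0.28 in 3-month knockouts, against -1.001 to -0.62 in 3-month controls. At 5 months it gave -1.57 to -0.45 in knockouts and -1.20 to -0.37 in controls, and neither difference passed the test (0.42 ± 0.21 SE, limma adjusted p = 0.656, and -0.05 ± 0.21, adjusted p = 0.979). Whether this probe lies in the deleted stretch is not given in the sources used here, so it does not check the genotypes, and knockout and control are the labels' names throughout.

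The first question was whether matrix genes differed between knockout and control livers of the same age. At 5 months 2 of the 133 probes passed the test (limma over all 36607 probes, Benjamini-Hochberg adjusted p under 0.05), and both were higher in knockout livers: a probe of Col6a1, the alpha-1 chain of microfibril-forming collagen VI, and a probe of Dcn, which encodes decorin. Of all probes, 0.145% passed. At 3 months none of the 133 passed, against 0.0355% of all probes, and by unadjusted p under 0.05 there were 3 higher and 5 lower (2.14% and 5.82% of all probes). By unadjusted p at 5 months, 13 were higher and 3 lower, against 7.07% and 3.41% of all probes. The median difference over the 133 probes was 0.02 at either age, beside -0.02 at 3 months and 0.01 at 5 months over all probes, so the list as a whole did not stand away from the rest of the array.

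The Col6a1 probe 1778984_1 gave 0.67, 0.54, 0.24, 0.84 and 0.71 in the 5-month knockouts, against -0.13, -0.79, -0.19, -1.0 and -0.89 in the 5-month controls. Every knockout lay above the reference pool and every control below it. The difference was 1.20 ± 0.19 (SE; a 2.30-fold ratio; limma adjusted p = 0.0158), with group means of 0.60 ± 0.23 and -0.60 ± 0.41 (SD, n = 5 each). At 3 months the same probe gave -0.03 ± 0.15 in knockouts and -0.07 ± 0.38 in controls. The other Col6a1 probes differed by 0.25 ± 0.15 (1773218_1) and -0.16 ± 0.16 (1784737_1) at 5 months, and Col6a2, whose chain assembles with the Col6a1 chain, by -0.04 ± 0.20; none of these 3 passed the test. The Col6a1 call did not hold with number set as a covariate (1.20, adjusted p = 0.151), within the set that holds all 5 controls and knockouts 1 and 2 (1.20, adjusted p = 0.216) or with the sign of the control 4 array turned (0.88, adjusted p = 0.363). It was also lost when control 4, control 5, knockout 4 or knockout 5 of the 5-month groups was left out (adjusted p of 0.0562, 0.0572, 0.058 and 0.0714), and the mean of the gene's 3 probes differed by only 0.43 (adjusted p = 0.0757).

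Decorin binds collagen fibrils and also the TGF-beta ligands. Dcn probe 1774000_1 gave 0.33, 0.34, 0.23, 0.44 and 0.32 in the 5-month knockouts, against -0.14, -0.44, 0.03, -0.28 and -0.29 in the 5-month controls, and the groups did not overlap. The difference was 0.55 ± 0.11 (SE; a 1.47-fold ratio; limma adjusted p = 0.0478). The other 3 Dcn probes had differences of the same size that missed the threshold. Probe 1792751_1 gave 0.41, 0.14, 0.21, 0.43 and 0.36 in knockouts, against -0.20, -0.55, 0.08, -0.20 and -0.26 in controls (0.54 ± 0.18, adjusted p = 0.285). Its groups did not overlap either. Probe 1782726_1 ranged from -0.14 to 0.45 in knockouts and from -0.63 to -0.05 in controls (0.55 ± 0.14, adjusted p = 0.147), and probe 1798039_1 from -0.31 to 0.69 in knockouts and from -0.79 to -0.09 in controls (0.72 ± 0.20, adjusted p = 0.198). At 3 months the 4 Dcn probes averaged 0.42 to 0.58 in knockouts and 0.13 to 0.48 in controls, so at that age decorin RNA stood above the reference in both genotypes on average. The 5-month call on 1774000_1 was close to the threshold and kept it under 4 of 38 alternatives, with the difference between 0.50 and 0.83 in the 37 that turned the arrays. It held in 3 of the 20 fits that left out a mouse, and of the 5-month mice only control 3 could be left out without losing it (adjusted p up to 0.162). With the sign of the control 4 array turned it was lost too (0.50, adjusted p = 0.185).

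Lumican and biglycan, encoded by Lum and Bgn, belong to the same proteoglycan family. All 6 probes of the family had positive differences at both ages, with medians of 0.18 at 3 months and 0.55 at 5 months. However, 4 of the 6 are the Dcn probes and share 1 gene. Of all 36607 probes, 16643 were positive at 3 months and 19148 at 5 months. At 3 months none of the 6 had an unadjusted limma p under 0.05. Bgn gave -0.06 to 0.23 in 5-month knockouts and -0.18 to -0.03 in controls (0.23 ± 0.12, adjusted p = 0.534). Lum gave -0.44 to 1.01 in knockouts and -0.73 to 0.40 in controls (0.38 ± 0.28, adjusted p = 0.708), so its groups overlapped widely.

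All 5 knockouts lay above all 5 controls at 5 months in 4 of the 133 probes, against 2.59% of all probes, and all lay below in none, against 1.33%. The 4 were the Col6a1 probe, the pair of Dcn probes above and Sparc. At 3 months the counts were 0 and 0, against 0.385% and 0.929% of all probes. Sparc, a collagen-binding glycoprotein that takes part in fibril assembly, gave -0.50, -0.41, -0.31, 0.45 and -0.03 in 5-month knockouts and -0.72, -0.51, -0.60, -0.72 and -0.69 in 5-month controls. Its controls were tightly grouped and its knockouts spread widely, the highest being knockouts 4 and 5. The difference was 0.49 ± 0.18 (adjusted p = 0.350), and it was 0.19 within the number set that holds all 5 controls and knockouts 1 and 2. Des encodes desmin, the intermediate filament protein of muscle and of stellate cells. It gave 0.33, 0.17, 0.07, 0.21 and 0.32 in 5-month knockouts and -0.16, -0.17, 0.16, -0.64 and -0.35 in controls, with control 3 inside the knockouts' range (0.45 ± 0.15, adjusted p = 0.307).

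**Figure D1:**
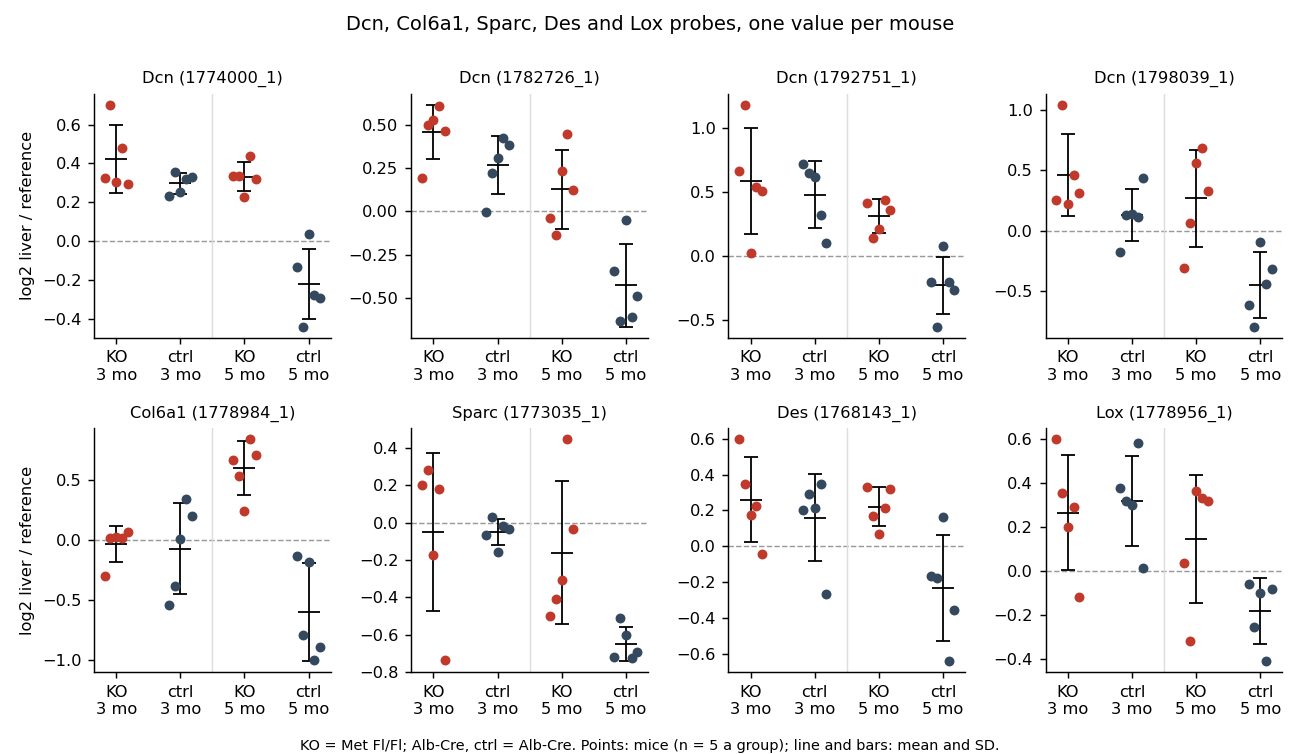
Log2 ratio of liver over reference (vertical axes) for the 4 Dcn probes and for Col6a1, Sparc, Des and Lox, in the 4 groups along the horizontal axis. Points are mice, n = 5 a group, and lines and bars are means and SD; at 5 months the knockouts of Col6a1 1778984_1, Dcn 1774000_1, Dcn 1792751_1 and Sparc all lie above the controls.

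Promoter windows of Col6a1, Sparc and Des are given so that the start regions of genes described above can be compared. No window was found for Dcn, and Sparc and Des had not passed the test. Each runs from 250 bases before to 50 bases after the annotated start in RefSeq, mouse build GRCm38.p6, 5′ to 3′ on the gene's strand. A capital letter marks the start base, and runs of capitals mark motif matches.
Col6a1, chr10:76725995-76726294, minus strand: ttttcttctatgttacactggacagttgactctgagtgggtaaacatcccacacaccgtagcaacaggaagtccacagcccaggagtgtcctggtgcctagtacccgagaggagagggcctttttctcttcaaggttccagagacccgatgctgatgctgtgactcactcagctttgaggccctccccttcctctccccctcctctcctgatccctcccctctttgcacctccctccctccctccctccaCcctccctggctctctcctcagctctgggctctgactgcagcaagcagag
Sparc, chr11:55420031-55420330, minus strand: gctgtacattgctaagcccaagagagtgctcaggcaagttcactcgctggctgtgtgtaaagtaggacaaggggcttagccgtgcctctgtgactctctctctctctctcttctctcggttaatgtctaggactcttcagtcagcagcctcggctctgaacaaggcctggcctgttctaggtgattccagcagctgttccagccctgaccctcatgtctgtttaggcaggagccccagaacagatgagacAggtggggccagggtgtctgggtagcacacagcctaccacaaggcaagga
Des, chr1:75360042-75360341, plus strand: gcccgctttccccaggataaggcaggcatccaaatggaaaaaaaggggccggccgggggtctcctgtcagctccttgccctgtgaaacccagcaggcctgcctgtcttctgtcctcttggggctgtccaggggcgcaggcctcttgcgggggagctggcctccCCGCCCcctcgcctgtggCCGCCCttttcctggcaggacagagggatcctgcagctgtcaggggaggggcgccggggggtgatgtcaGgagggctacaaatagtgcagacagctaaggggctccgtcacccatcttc
The motifs searched were TATAAA on the gene's strand, the GC box GGGCGG on both strands, the CCAAT box on both strands, and the CArG box bound by serum response factor on both strands. No matches of different motifs overlapped in these windows. Des held GGGCGG on the reverse strand, printed as its complement, beginning 87 and 69 bases before the start, and the Col6a1 and Sparc windows held none of the 4 motifs. Of the 32851 mouse promoter windows in the table, 8.32% held TATAAA, 35.7% GGGCGG, 37.4% CCAAT and 1.63% the CArG box. For 57 of the 79 genes the table had 63 windows, of which 22.2% held TATAAA, 55.6% GGGCGG, 30.2% CCAAT and 1.59% the CArG box. Their median GC content was 59%, beside 52.7% over all windows, and was 57.3% for Col6a1, 55.3% for Sparc and 65.3% for Des.

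Lysyl oxidases crosslink collagen and elastin. Their 7 probes had a median difference of 0.32 at 5 months and 0.07 at 3 months, and none passed the limma test. At unadjusted p under 0.05 there were 2 higher and 0 lower at 5 months (7.07% and 3.41% of all probes) and 0 and 0 at 3 months (2.14% and 5.82%). Loxl1 probe 1792934_1 was the highest of the 133 probes against the reference in 5-month knockouts. It gave 2.53, 1.47, 1.72, 1.18 and 1.83 there, against 1.30, 0.85, 1.68, 0.68 and -0.01 in 5-month controls (0.84 ± 0.32, adjusted p = 0.358). The groups overlapped, and the other Loxl1 probe differed by 0.02 ± 0.12. Lox gave -0.32 to 0.36 in 5-month knockouts and -0.41 to -0.06 in controls (0.33 ± 0.15, adjusted p = 0.471), and its difference was 0.04 within the number set that holds all 5 controls and knockouts 1 and 2. Loxl3 and Loxl4 differed by 0.44 ± 0.24 and 0.32 ± 0.23, and the Loxl2 probes by -0.04 ± 0.15 and 0.10 ± 0.31.

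The fibrillar collagens, which make up most scar collagen, differed little by genotype. Over 22 probes of 11 genes the median difference was -0.00 at 3 months and -0.07 at 5 months, with 11 and 9 probes positive. Col1a1 gave 0.03, 0.01, -0.37, 0.13 and -0.04 in 5-month knockouts, against -0.22, 0.05, 0.02, -0.29 and -0.01 in 5-month controls. The groups covered nearly the same range (0.04 ± 0.16, adjusted p = 0.977), as they did at 3 months (0.01 ± 0.16). Col1a2, the other chain of collagen I, differed by -0.21 ± 0.15 at 5 months. The 2 Col3a1 probes differed by -0.21 ± 0.25 and 0.06 ± 0.16 at 5 months. The largest fibrillar differences belonged to Col11a1, a minor chain known chiefly from cartilage: 1.18 ± 0.55 at 3 months by probe 1788516_1 (adjusted p = 0.615) and -0.62 ± 0.24 at 5 months by probe 1797661_1 (adjusted p = 0.354). Its 4 probes took both signs at each age.

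Against the untreated pool, collagen III, a fibrillar collagen of soft tissue, stood lowest: a Col3a1 probe had the lowest mean of the 133 probes in each of the 4 groups. Col3a1 probe 1769919_1 gave -1.77, -1.33, -1.49, -1.27 and -0.11 in 3-month knockouts, against -1.77, -1.51, -1.36, -0.81 and -0.84 in 3-month controls. At 5 months it gave -1.23, -0.81, -1.72, -1.13 and -1.32 in knockouts and -1.01, -0.88, -1.09, -0.97 and -1.18 in controls. All 20 DEN-treated livers lay below the reference, 3-month knockout 5 being the nearest to it. Probe 1781909_1 averaged -0.84 ± 0.31 in 3-month knockouts and -0.77 ± 0.22 in 3-month controls, then -1.40 ± 0.23 in 5-month knockouts and -1.46 ± 0.24 in 5-month controls (SD, n = 5 each). The limma adjusted p of the 8 group means against the reference ranged from 4.15e-07 to 0.000595, and within the number set of 3-month controls 4 and 5 and knockouts 3 to 5 the 3-month calls were lost (adjusted p up to 0.283). Within the other 3-month set 1 was lost (probe 1781909_1 in knockouts, -0.85, adjusted p = 0.0602). Collagen I lay nearer the pool than collagen III. Col1a1 averaged -0.20 in 3-month knockouts, -0.21 in 3-month controls, -0.05 in 5-month knockouts and -0.09 in 5-month controls. Col1a2 averaged -0.34, -0.27, -0.59 and -0.38 in the same 4 groups, and it too lay below the pool in all 20 livers (-0.93 to -0.05). The Col3a1 promoter window is shown because a Col3a1 probe had the lowest mean in each group.
Col3a1, chr1:45311288-45311587, plus strand: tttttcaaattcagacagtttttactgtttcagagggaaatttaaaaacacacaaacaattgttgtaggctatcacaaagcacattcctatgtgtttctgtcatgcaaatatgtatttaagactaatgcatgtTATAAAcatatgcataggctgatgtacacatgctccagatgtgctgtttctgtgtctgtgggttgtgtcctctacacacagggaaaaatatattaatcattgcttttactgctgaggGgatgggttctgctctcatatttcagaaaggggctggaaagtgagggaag
It held TATAAA beginning 117 bases before the start, none of the other 3 motifs, and 37.7% GC.

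**Figure D2:**
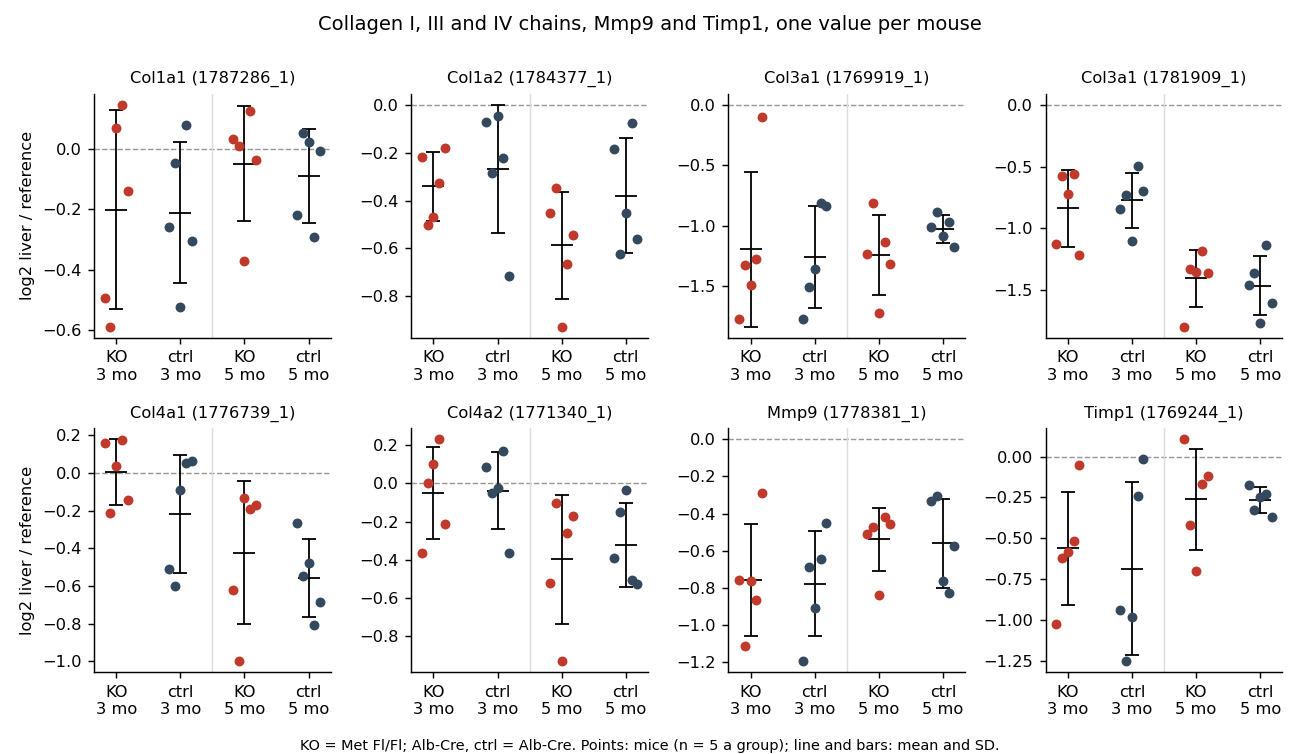
Log2 ratio of liver over reference (vertical axes) for chains of collagens I, III and IV, Mmp9 and Timp1 in the 4 groups along the horizontal axis. Points are mice, n = 5 a group, and lines and bars are means and SD; all values of both Col3a1 probes lie below 0, and knockouts and controls of the same age overlap in every panel.

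Counted over the whole list, more probes passed below the pool than above it in each group, but at 5 months this order turned with the setting. In 3-month knockouts 6 of 133 probes were higher and 31 lower than the reference (limma adjusted p under 0.05; 10.6% and 17.6% of all probes). In 3-month controls 9 were higher and 32 lower, against 12.3% and 17.6% of all probes. In 5-month knockouts 20 were higher and 25 lower, against 17.1% and 12.4%. In 5-month controls 14 were higher and 31 lower, against 14.7% and 14.5%. The median over the group means of the 133 probes was -0.20 in 3-month knockouts, -0.20 in 3-month controls, 0.15 in 5-month knockouts and 0.02 in 5-month controls. Over all probes it was -0.12, -0.06, 0.11 and 0.09 in the same order. Medians per mouse ran from -0.31 to -0.04 in 3-month knockouts and from -0.32 to -0.07 in 3-month controls. At 5 months they overlapped too, with -0.10 to 0.21 in knockouts and -0.14 to 0.08 in controls. The 0.21 was that of 5-month knockout 3, which had a single array. Age and number set change together between the 3-month and 5-month groups and cannot be told apart. Liver-in-Cy5 arrays alone gave 20 higher and 11 lower in 5-month knockouts and 46 and 21 in 5-month controls, same-age mice alone 31 and 29 in 5-month knockouts and 28 and 28 in 5-month controls, and the number set of all 5-month controls 37 and 30 in those controls. The totals also moved by over 1.5 times, for example to 20, 18 and 78 in 3-month knockouts, 3-month controls and 5-month controls after quantile normalization, and to 11 in 5-month controls with the sign of the control 4 array turned.

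Of the 133 probes, 11 were below the reference in all 4 groups (4.09% of all probes) and none above it in all 4 (1.46% of all probes). The 11 were both Col3a1 probes, 1 probe each of Col11a1, Col13a1, Col16a1, Col5a3, Mmp17, Mmp24 and Mmp25, and the single probes of Mmp9 and Pdgfrb. The count was 3 with the sign of the control 4 array turned (both Col3a1 probes and Col13a1), 7 with centred arrays, 5 from liver-in-Cy5 and 2 from liver-in-Cy3 arrays alone, and 6 from mice with both orientations. Leaving out a mouse gave 6 to 14, with 6 without 5-month control 3 or 5-month knockout 5, and 7 without 5-month control 5, 5-month knockout 1 or 3-month knockout 4. Mmp9, a gelatinase, averaged -0.76 ± 0.30 in 3-month knockouts and -0.78 ± 0.28 in 3-month controls, then -0.54 ± 0.17 in 5-month knockouts and -0.56 ± 0.24 in 5-month controls. Pdgfrb, the PDGF receptor of stellate cells and pericytes, averaged -0.35 ± 0.27 and -0.73 ± 0.24 in 3-month knockouts and controls and -0.52 ± 0.28 and -0.37 ± 0.19 in 5-month knockouts and controls. Its 3-month difference of 0.38 ± 0.16 did not pass the test (adjusted p = 0.559). Turning the control 4 array ended the 5-month control calls of Mmp9 (-0.41, adjusted p = 0.0563) and Pdgfrb (-0.38, adjusted p = 0.0605). The 3-month knockout call of Pdgfrb was lost with centred arrays (adjusted p = 0.130) and after quantile normalization (adjusted p = 0.0862). Leaving out 3-month knockout 1, 3 or 4 also lost it (limma adjusted p of 0.0774, 0.109 and 0.129). The 5-month control call of Pdgfrb was lost without 5-month control 1 or 3 as well (adjusted p = 0.0563 and 0.0973). Single orientations ended the 5-month knockout calls of Mmp9 (liver in Cy3, adjusted p = 0.118) and Pdgfrb (liver in Cy5, adjusted p = 0.118). In bulk liver, fewer cells of a type and less RNA per cell cannot be told apart.

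Among the basement membrane collagens, 13 probes of 8 genes had median differences of -0.03 at either age. Col4a1, the main basement membrane chain with Col4a2, averaged 0.00 in 3-month knockouts, -0.22 in 3-month controls, -0.42 in 5-month knockouts and -0.56 in 5-month controls. Col4a2 averaged -0.05, -0.04, -0.40 and -0.32 in the same groups, so both chains sat lower against the pool at 5 months in either genotype. Col4a4 probe 1789926_1 had the smallest p of the list at 3 months, with -0.21 ± 0.32 in knockouts and 0.41 ± 0.31 in controls (-0.62 ± 0.19, adjusted p = 0.341). The gene's second probe differed by 0.44 ± 0.24 in the opposite direction. Among the other collagen VI chains, Col6a6 had the largest difference of the list at 3 months (-1.47 ± 0.50, adjusted p = 0.392), with SDs of 0.86 in knockouts and 1.26 in controls. The fibril-associated collagens had medians of 0.15 at 3 months and -0.07 at 5 months over 13 probes. Col9a2, known from cartilage, differed by 1.11 ± 0.40 at 3 months (adjusted p = 0.440) and 0.87 ± 0.40 at 5 months (adjusted p = 0.461), neither past the threshold. Of the remaining collagens, Col7a1 probe 1785053_1 had the most negative difference at 5 months. It gave -0.40, 0.11, -0.09, -0.07 and 0.47 in knockouts, against 0.97, 0.38, 0.46, 0.91 and 0.82 in controls (-0.70 ± 0.21, adjusted p = 0.245). Col7a1 forms the anchoring fibrils of skin; its second probe differed by 0.06 ± 0.13. Col26a1 differed by -0.66 ± 0.31 at 3 months (adjusted p = 0.625) and Col9a1 probe 1791705_1 by -0.68 ± 0.35 (adjusted p = 0.666).

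The 31 metalloproteinase probes of 21 genes had median differences of 0.01 at 3 months and -0.07 at 5 months, and none passed the limma test. At unadjusted p under 0.05 there were 0 higher and 2 lower at 3 months (2.14% and 5.82% of all probes) and 1 and 1 at 5 months (7.07% and 3.41%). Mmp2 and Mmp9 are the gelatinases, Mmp13 a collagenase, Mmp14 the membrane-type activator of Mmp2, and Mmp12 the macrophage elastase. At 5 months Mmp2 differed by -0.11 ± 0.20, Mmp9 by 0.02 ± 0.17, Mmp14 by -0.09 ± 0.20, and the Mmp13 probes by -0.01 ± 0.22 and -0.07 ± 0.27. At 3 months Mmp7, known as matrilysin, had -0.35 ± 0.29 in knockouts and 0.36 ± 0.53 in controls (-0.71 ± 0.30, adjusted p = 0.559). Mmp12 probe 1775637_1 had -0.68 ± 0.92 in knockouts and 0.44 ± 1.23 in controls (-1.13 ± 0.48, adjusted p = 0.560), while the second Mmp12 probe differed by -0.17 ± 0.26. Both Mmp12 groups had a wide spread at that probe. Several of the highest levels of the list were metalloproteinases in 5-month livers: a probe of Mmp24 averaged 1.27 ± 1.28 in knockouts and 0.68 ± 0.42 in controls, and a probe of Mmp8, the neutrophil collagenase, 0.92 ± 0.41 in knockouts and 0.97 ± 0.47 in controls. The other Mmp24 and Mmp8 probes averaged between -0.55 and 0.24 in the same livers, so probes of 1 gene did not give 1 level.

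The 5 probes of the inhibitors had medians of -0.17 at 3 months and 0.04 at 5 months. Timp1, the inducible inhibitor that is known as a marker of fibrosis, averaged -0.56 ± 0.35 in 3-month knockouts and -0.69 ± 0.53 in 3-month controls. At 5 months it averaged -0.26 ± 0.31 in knockouts and -0.27 ± 0.08 in controls, and its genotype differences were 0.12 ± 0.22 and 0.01 ± 0.22. Timp2 differed by -0.19 ± 0.12 at 3 months and 0.06 ± 0.12 at 5 months. The Timp3 probes, whose protein is bound in the matrix, differed by 0.01 ± 0.15 and -0.17 ± 0.13 at 3 months and by -0.09 ± 0.15 and 0.26 ± 0.13 at 5 months.

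Among the cell-state and signal genes, Tgfb1, the ligand that drives stellate cell activation, averaged -0.09 ± 0.18 in 3-month knockouts, -0.17 ± 0.25 in 3-month controls, -0.12 ± 0.20 in 5-month knockouts and -0.19 ± 0.16 in 5-month controls. Both genotypes thus lay close to the pool at both ages. Acta2, the smooth muscle actin of myofibroblasts, was read by 4 probes that disagreed. At 5 months they averaged 0.86, 0.17, 0.50 and -0.75 in knockouts and 0.89, -0.08, 0.82 and -1.08 in controls, so no level is given for the gene. Its 4 genotype differences lay between -0.32 and 0.34 at 5 months. Fn1, which encodes fibronectin, also split: 1 of its 4 probes averaged 1.08 ± 0.82 in 5-month knockouts and 0.76 ± 0.58 in controls, while the others averaged -0.83 to -0.41 in knockouts and -0.90 to 0.16 in controls. Of the 35 genes with over 1 probe, 16 had genotype differences of 1 sign at 5 months over all their probes. The share over all such genes of the array is not given here, so this count does not measure how well probes agree.

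**Figure D3:**
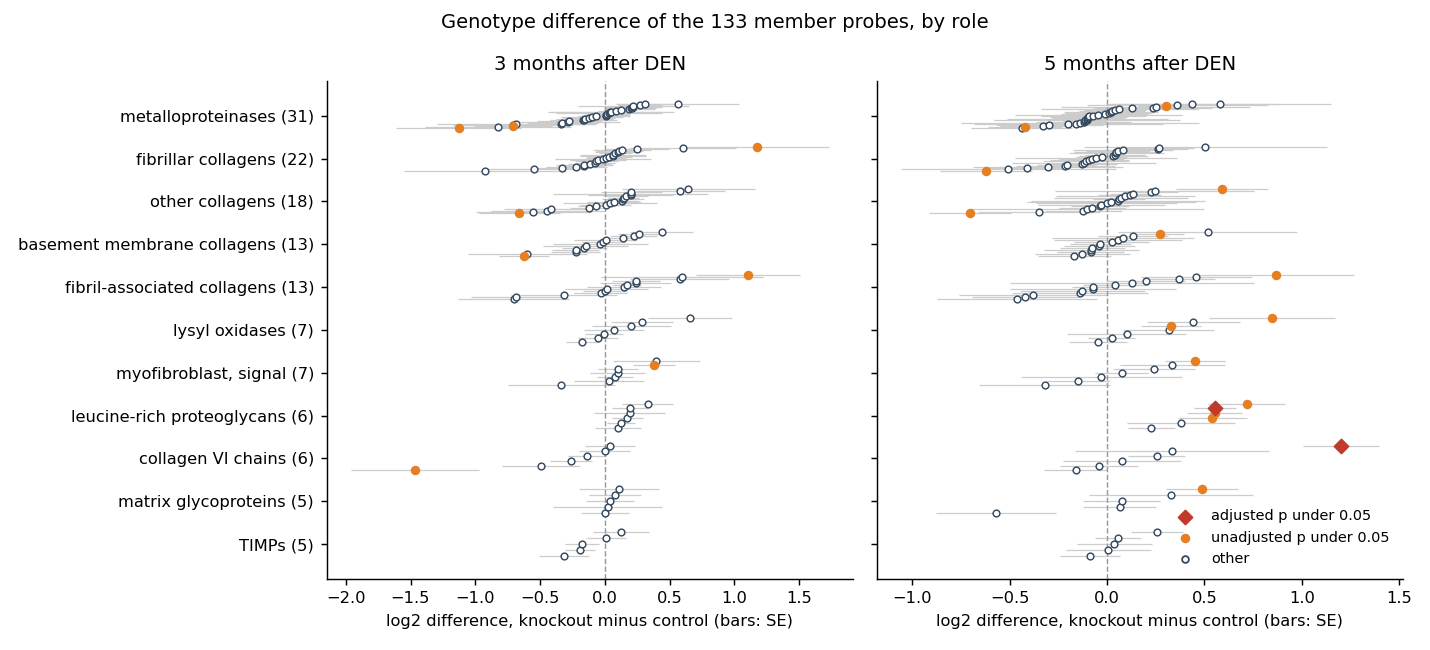
Log2 difference of knockout minus control (horizontal axes, bars are SE) for the 133 probes, grouped by role down the page with the number of probes, at 3 months (left) and 5 months (right). Diamonds mark the Col6a1 and Dcn probes past adjusted p 0.05, filled circles those past unadjusted p 0.05. The 6 leucine-rich proteoglycan probes, 4 of them Dcn probes, are all right of 0 at both ages.

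Whether the genotype difference itself changed between 3 and 5 months was tested as an interaction. None of the 133 probes passed (limma adjusted p under 0.05), as for 0% of all probes, and 9 had unadjusted p under 0.05, against 7.74% of all probes. For Col6a1 1778984_1 the 5-month difference exceeded the 3-month one by 1.16 (adjusted p = 0.431), for Dcn 1774000_1 by 0.43 (adjusted p = 0.533) and for Sparc by 0.49 (adjusted p = 0.678). The call at 5 months and its absence at 3 months are therefore not shown to differ.

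The dye orientations were compared, since all livers but those of the single-array mice were labelled with Cy5 on one array and Cy3 on the other. Both single-array mice are 5-month knockouts, and each entered only its own orientation. The 5-month differences of the orientations thus rest on knockouts that are not all the same mice. At 5 months the Col6a1 difference was 1.30 from liver-in-Cy5 arrays alone and 1.20 from liver-in-Cy3 arrays alone. For the 4 Dcn probes these values lay between 0.51 and 0.84 and between 0.48 and 0.62, for Sparc they were 0.61 and 0.47 and for Des 0.47 and 0.49. These genes thus differed by a like amount in both orientations, but they were named for small p in the average of both, so this is no independent check. Of the 200 array probes with the smallest p in liver-in-Cy5 arrays at 5 months, 97 kept their sign in liver-in-Cy3 arrays. Ranked by liver-in-Cy3 arrays, 158 of 200 kept it in the other orientation. At 3 months these counts were 161 and 156. Over the list the sign of the difference was shared in 77 of 133 probes at 3 months and 62 of 133 at 5 months, beside 57.2% and 55.1% of all probes. Col7a1 1785053_1 differed by -1.12 in one orientation and -0.29 in the other.

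**Figure D4:**
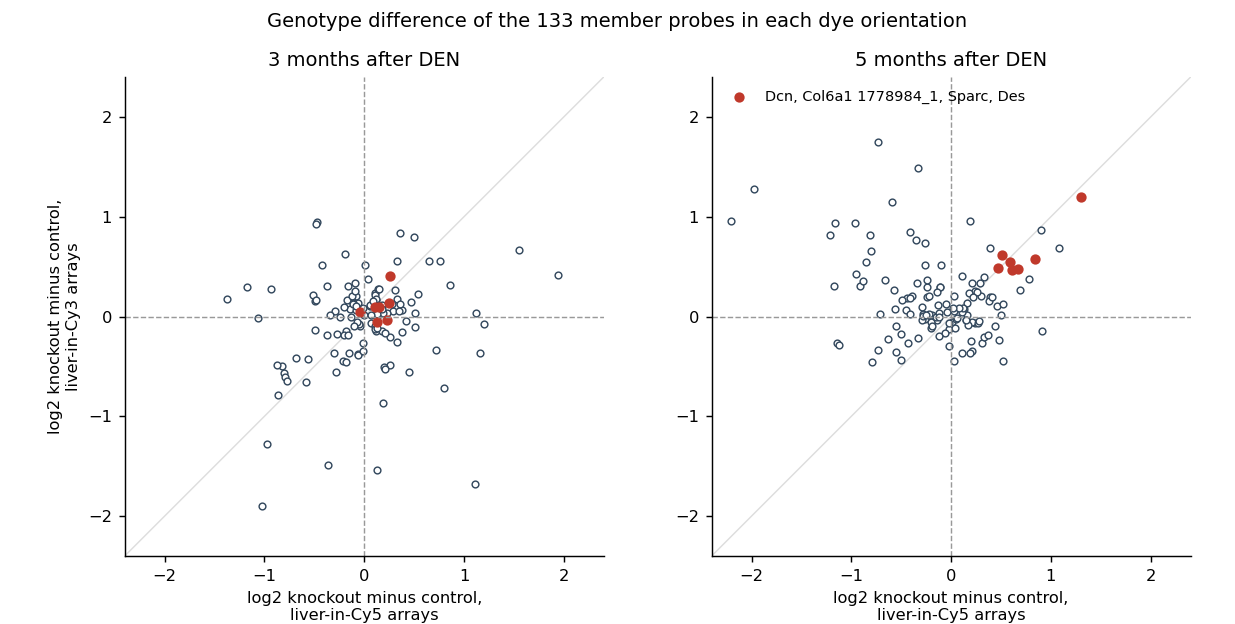
Log2 difference of knockout minus control for the 133 probes, from liver-in-Cy5 arrays (horizontal axes) and liver-in-Cy3 arrays (vertical axes), at 3 months (left) and 5 months (right). Each point is a probe and the diagonal is equality; at 5 months the filled points, the 4 Dcn probes, Col6a1 1778984_1, Sparc and Des, lie near the diagonal, while 62 of 133 probes share a sign.

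Members did not vary together closely from mouse to mouse. After group means were removed, the median Pearson r over 20 mice was -0.01 over 231 pairs of fibrillar collagen probes, 0.06 over all 8778 pairs of the list and 0.08 over 81 pairs of probes of 1 gene. The 4 Dcn probes had a median of 0.59 over their 6 pairs, with a range of 0.07 to 0.67. Of 15 named pairs tested by permutation within groups, none passed after adjustment. Dcn, as the mean of its probes, and Sparc gave r = 0.49 and rho = 0.43 (permutation p = 0.0853 and 0.114, adjusted 0.548 and 0.570). That r was 0.46 without the 2 mice farthest from the median of Dcn, 0.47 within 3-month mice, 0.51 within 5-month mice and 0.25 in the 7 mice of the number set with all 5-month controls. Col1a1 and Col1a2, chains of 1 protein, gave r = -0.05 and rho = -0.18 (permutation p = 0.825 and 0.445). All these pairs share each mouse's arrays, and the pairs other than those of Col1a1, Col1a2 and Col3a1 were chosen after their values were seen.

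Genes around the matrix pathway were read as gene lists, and none of their probes passed the test at either age. Of 41 probes for TGF-beta and PDGF signalling, 3 were higher and 0 lower at unadjusted p under 0.05 at 5 months (2 and 0 at 3 months), with a median difference of 0.10. Of 23 probes for enzymes that hydroxylate, fold and trim collagen, 2 were higher and 1 lower at 5 months (1 and 3 at 3 months). Laminins, elastic fibre and other matrix proteins gave 3 higher and 0 lower of 54 probes at 5 months, integrins and other matrix receptors 2 and 0 of 44, and plasmin-system and ADAM proteases 1 and 1 of 29. Over all probes the shares were 7.07% higher and 3.41% lower at 5 months and 2.14% and 5.82% at 3 months.

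Marker lists of liver cell types were read beside the Dcn and Col6a1 results, and their counts stand against 7.07% higher and 3.41% lower of all probes at 5 months. Markers of hepatic stellate cells had a median difference of 0.02 at 5 months over 18 probes (3 higher and 1 lower at unadjusted p under 0.05), and those of portal fibroblasts and mesothelium 0.01 over 16 probes (0 and 0). Sinusoidal endothelial markers had a median of 0.35 over 16 probes (8 higher, 0 lower). Their median per mouse ran from 0.10 to 0.27 in 5-month knockouts and from -0.28 to -0.07 in 5-month controls, without overlap. Kupffer cell and macrophage markers also had a median of 0.35, over 17 probes (8 higher, 0 lower), with -0.09 to 0.34 in knockouts and -0.42 to -0.06 in controls. Hepatocyte markers had 0.17 over 14 probes (3 higher, 0 lower), cholangiocyte markers 0.18 over 8 (1 and 0), T and B cell markers 0.03 over 9 (1 and 0), smooth muscle markers 0.03 over 8 (0 and 0) and neutrophil markers -0.08 over 14 (0 and 1). The proteoglycan probes had per-mouse medians of 0.08 to 0.44 in 5-month knockouts and -0.54 to -0.07 in 5-month controls. Of these 6 probes 4 are Dcn probes, so these medians largely repeat the Dcn values above, and the Bgn and Lum groups each overlapped. At 3 months the median difference of every marker list lay between -0.05 and 0.11. The part of endothelial and macrophage RNA in the Dcn, Col6a1 and Sparc values was not tested. Ratios to a liver pool do not show whether a defining marker is absent, so the tissue was not checked against markers in that sense.

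**Figure D5:**
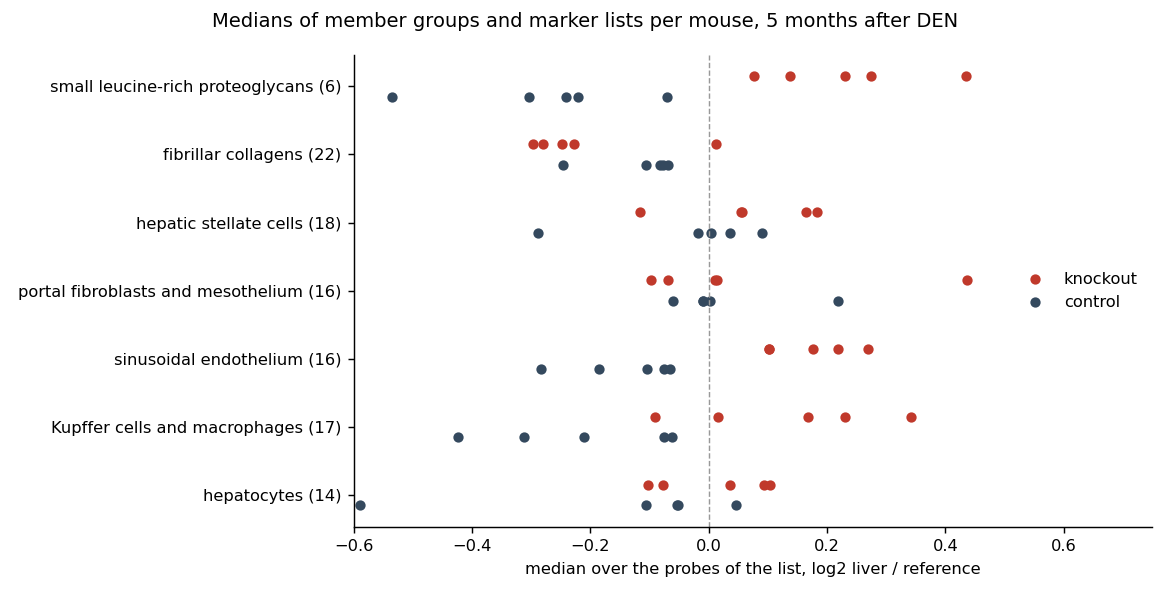
Median log2 ratio of liver over reference (horizontal axis) over the probes of 2 groups of matrix genes and 5 marker lists, with the number of probes, for each 5-month mouse; knockouts are the upper row of points and controls the lower row of each list. Knockouts and controls do not overlap for the proteoglycans (0.08 to 0.44 and -0.54 to -0.07) or the sinusoidal endothelium list, and overlap for fibrillar collagens and stellate cell markers. Of the 6 proteoglycan probes 4 are Dcn probes, and the groups overlap for Bgn and for Lum alone.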

How the data were processed

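Liver RNA of 20 mice was measured on 38 two-colour long-oligonucleotide arrays against a common reference pool. The deposited values are log2 ratios per probe, from which the authors had excluded invalid features and which they had normalized to the 50th percentile, per the design text; the log2 base was checked from the spacing of the values. The sources used here state neither how background was handled nor which dye is on top of the ratio. From these log2 values, the sign of arrays with liver in Cy3 was turned, each probe's dye effect was estimated as a mean over the 18 mice with 2 orientations and taken off, and a mouse's arrays were averaged. The dye effect was larger at 3 months, with an SD per mouse of 0.75 to 1.03, against 0.25 to 0.58 at 5 months. Before turning, r between the orientations was 0.34 to 0.51 in 3-month mice and -0.70 to 0.18 in 5-month mice. Once turned, and before the subtraction, the 3-month orientations thus ran opposite ways. The 2 mice with a single array, both 5-month knockouts, rely on that subtraction alone. Any gap between the pooled dye effect and their own stays in their values, and its size was not tested. Groups, their 3- and 5-month differences and the interaction were fitted with limma 3.58.1 in R 4.3.3 over all 36607 probes, sharing 1 spread per probe over the 4 groups, with Benjamini-Hochberg adjustment. The fit was tested on simulated mouse values with independent noise, and the turning on noiseless arrays with 1 dye effect for all mice. Neither held number-set effects or a dye effect that differs with age, so neither tests those.

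The number of mice, 5 a group, limits the precision, since the arrays of a mouse were averaged. Of all probes, 26926 had 1 gene symbol, 203 several and 9478 none; none was named from a probe with several. The matrix genes and lists were chosen with earlier results of these data known. Named in full were probes past adjusted p 0.05, the 10 with the smallest p per genotype contrast, the 5 with the smallest p in the interaction, the 5 highest and lowest per group, and a fixed set of well-known genes. Alternatives covered centring, quantile normalization, dye handling, the number sets, moderation, a plain two-sample t-test at the methods' threshold without their random variance model, gene means and leaving out each mouse.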

Additional observations from a re-analysis of the deposited data

Results flagged for a closer look

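In 248 groups of 5 mice, 17 values of the named probes lay far from the other 4, where chance alone gives about 1 in 20 groups. Each is the log2 ratio of liver over reference of 1 mouse, and 4 of the 17 belong to 5-month knockout 3, which had a single array: Col12a1 1797166_1 at 3.47, Col6a6 at 1.98, Col22a1 at 1.08 and Mmp9 at -0.84. Of the other knockouts, 3-month knockout 1 had Col6a1 1778984_1 at -0.30, and 3-month knockout 2 had Dcn 1798039_1 at 1.04 and Acta2 1790206_1 at -1.30. Among 5-month controls, control 1 had Col26a1 at 0.54 and Timp2 at -0.012, control 3 had Mmp13 1797136_1 at -0.029, and control 4 had Col5a2 1766521_1 at 1.45 and Col9a1 1791705_1 at 1.11. Among 3-month controls, control 1 had Timp3 1787512_1 at -0.73, control 2 had Col5a2 1766521_1 at 1.66, control 4 had Fn1 1795449_1 at 0.091, and control 5 had Des at -0.26 and Acta2 1790193_1 at -1.71. None is a 5-month value of the Col6a1 or Dcn probes that passed the test.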

How the results depend on the processing

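At 5 months 2 of the 133 probes passed the test; the count was 7 after quantile normalization, 16 at unadjusted p under 0.05, and 1 with array centring, with no dye effect subtracted, without the liver-in-Cy5 array of control 4, with trended and robust moderation, with a dye effect from same-age mice, or with only mice of both orientations (the last 2 were chosen after seeing the data). It was 0 from liver-in-Cy5 or liver-in-Cy3 arrays alone, with no array turned, with that control 4 array's sign turned, with number set as a covariate, within the number set of all 5-month controls, from 5-month mice alone, by the methods' t-test after adjustment, with gene means and with the replicate block, and 0 to 2 when a mouse was left out. Replicate numbers did not pair the mice (r of -0.07 to 0.11 at 3 months and -0.18 to 0.17 at 5 months, and not every mouse correlated best with its own number). The 5-month median was -0.10 from liver-in-Cy5 arrays, 8 probes passed at 3 months at unadjusted p, and 1 interaction passed the methods' t-test at its unadjusted threshold.

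Against the reference, 37 probes passed in 3-month knockouts, 41 in 3-month controls, 45 in 5-month knockouts and 45 in 5-month controls. Quantile normalization gave 20 and 18 in 3-month knockouts and controls and 78 in 5-month controls. Liver-in-Cy3 arrays gave 16 in 3-month knockouts, 26 in 5-month knockouts and 29 in 5-month controls. With no array turned there were 81, 89 and 0 in 3-month knockouts, 3-month controls and 5-month controls. For 5-month controls, leaving out the control 4 array gave 28 and turning its sign 11. Within number sets there were 11 in 5-month knockouts, 10 and 17 in 3-month knockouts and controls of one set and 0 and 0 in the other. Same-age mice alone gave 23 and 22 at 3 months. The methods' t-test gave 0, 2, 6 and 8 in the 4 groups, and after adjustment 4, 10 and 21 in the first 3. Gene means gave 24, 25, 27 and 29, a fold of at least 2 gave 2, 1, 6 and 3, and mice with both orientations gave 18 in 5-month knockouts. Leaving out a mouse gave 21 to 42, 23 to 44, 27 to 49 and 24 to 50.

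Leaving arrays unturned cancels liver signal by construction, and turned these signs: at 5 months Des -0.010, Dcn 1774000_1 -0.055, Col6a1 -0.0036 and Loxl1 -0.0066; at 3 months Mmp12 0.16, Col6a6 0.44 and Col4a4 0.038; in the interaction Mmp7 -0.21, Dcn -0.084, Pdgfrb 0.0078, Col6a6 -0.98, Col6a1 -0.094, Col4a4 -0.28 and Timp3 -0.006; and against the reference Col3a1 0.033 and 0.13 (3-month knockouts), 0.13 (3-month controls), 0.084 (5-month knockouts) and 0.090 (5-month controls), Mmp9 0.40, 0.21, 0.083 and 0.28, and Pdgfrb 0.11, 0.35 and 0.18. Also reversed were Col11a1 1788516_1 in the interaction from liver-in-Cy3 arrays (0.54) and Col26a1 at 3 months within one number set (0.23), and the cause was not tested. The signal over background is not in the deposited values, so dim probes could not be set apart. The Col3a1 probes stayed below the reference in every alternative that turned the arrays (group means of -2.52 to -0.60). Over the alternatives that left out no mouse, the values of named probes kept direction and side of the threshold in 3057 cases, changed sign without a call in 345, lost a call in 78 and gained one in 5. Liver over reference was not fitted with number set or replicate as a block.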
